A study of Mus musculus with 29 samples.

Results

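The genes described here are the secreted and membrane-bound proteases that cut extracellular matrix, together with their tissue inhibitors. They were chosen as the rows of the count table whose Ensembl ID belonged to a protein-coding mouse gene named as a matrix metalloprotease (MMP), an ADAMTS protease, an ADAMTS-like protein (ADAMTSL) or a tissue inhibitor of metalloproteases (TIMP). Of 56953 rows, 52029 were matched to a symbol and 50 were members: 22 MMPs, 19 ADAMTS proteases, 5 ADAMTSL proteins and 4 TIMPs. The symbol Mmp1a also fitted the names, but GENCODE M21 lists it as a polymorphic pseudogene. It held 6 counts over all libraries and was not counted as a member.

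RNA was measured by Smart-seq3, a full-length cDNA protocol, in 29 bulk libraries of cultured stromal vascular fraction (SVF), the mixed non-adipocyte cells released when fat is digested. The SVF came from inguinal (iWAT) or perigonadal (pgWAT) white adipose tissue of adult C57BL6/J mice. In all groups the crude, unsorted SVF was grown in PM1 preadipocyte medium with 1 nM basic FGF for 4 days. By their deposited labels the libraries fall into iWAT male (n = 10), iWAT female (n = 9), pgWAT male (n = 4) and pgWAT female (n = 6). The study's methods also count 29 samples, but give other sizes for iWAT male and for both pgWAT groups. The study describes these wells as technical replicates from a few independent experiments, fewer for pgWAT than for iWAT. The labels do not tie a well to an experiment or an animal. All p-values below therefore measure the spread between technical wells. They do not measure the spread between experiments or animals, however small they are.

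MMPs are zinc proteases made as inactive proenzymes, and between them they cut fibrillar collagen, basement membrane, proteoglycans and elastin. ADAMTS proteases carry thrombospondin repeats that hold them to the matrix. Some of them trim procollagen, and others cut large proteoglycans such as versican. ADAMTSL proteins share these repeats but lack the protease domain, and several bind fibrillin microfibrils. TIMPs bind MMPs at the active site, and Timp3 also blocks several ADAMTS proteases. In fat, stromal cells use these enzymes to remodel the collagen around growing adipocytes, and macrophages add Mmp12 and Mmp9.

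Several of the members that carried the depot differences below lie side by side in 1 cluster on mouse chromosome 9, in the order Mmp13, Mmp12, Mmp1b, Mmp3, Mmp1a, Mmp10, Mmp8, Mmp27, Mmp20 and Mmp7. This cluster holds 9 of the 22 MMP members. The promoters of 6 of its genes are shown. Of these, Mmp12, Mmp3, Mmp8 and Mmp27 were higher in pgWAT over all libraries, and Mmp13 and Mmp10 did not pass the test. Each line is 150 bases on the gene's strand (the plus strand for all 6), 130 before and 20 after the start in RefSeq (GRCm38.p6), with capitals for the AP-1 heptamer (TGAGTCA or its reverse complement TGACTCA) and for TATAAA:
Mmp13 (chr9:7272384-7272533): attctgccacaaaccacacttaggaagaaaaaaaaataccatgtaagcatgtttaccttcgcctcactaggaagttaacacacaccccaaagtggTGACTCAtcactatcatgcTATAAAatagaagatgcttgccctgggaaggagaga
Mmp12, second start (chr9:7347244-7347393): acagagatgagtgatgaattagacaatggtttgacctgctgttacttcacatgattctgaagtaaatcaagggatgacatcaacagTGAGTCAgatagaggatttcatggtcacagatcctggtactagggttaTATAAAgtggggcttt
Mmp3 (chr9:7445692-7445841): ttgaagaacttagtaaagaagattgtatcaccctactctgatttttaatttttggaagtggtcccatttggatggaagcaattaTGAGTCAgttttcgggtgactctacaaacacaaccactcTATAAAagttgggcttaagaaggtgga
Mmp10 (chr9:7502212-7502361): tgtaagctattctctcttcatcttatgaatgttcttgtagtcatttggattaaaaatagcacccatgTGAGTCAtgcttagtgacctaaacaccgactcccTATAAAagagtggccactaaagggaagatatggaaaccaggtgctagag
Mmp8 (chr9:7558299-7558448): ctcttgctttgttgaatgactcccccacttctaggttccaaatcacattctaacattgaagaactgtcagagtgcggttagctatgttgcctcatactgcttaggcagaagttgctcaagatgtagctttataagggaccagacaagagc
Mmp27 (chr9:7571266-7571415): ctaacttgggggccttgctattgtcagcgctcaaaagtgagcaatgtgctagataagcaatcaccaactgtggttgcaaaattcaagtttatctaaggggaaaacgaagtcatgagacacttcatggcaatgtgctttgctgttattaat
AP-1 is the Fos and Jun dimer that growth factors induce. Mmp13, Mmp12 (second start), Mmp3 and Mmp10 each held 1 heptamer and 1 TATAAA, while Mmp8 and Mmp27, like the first start of Mmp12, held neither in this window. In the Mmp12 window the TATAAA begins 4 bases after the start, not before it. RefSeq promoters were found for 35 of the 50 members (38 promoters). In windows of 250 bases before to 50 after the start, 6 of these 38 held the heptamer on either strand, against 5.20% of 32851 mouse promoters. TATAAA on the gene's strand was in 10 of the 38, against 8.32% of all promoters. Both together were in 6 of the 38, all in the cluster, and in 0.624% of all promoters. Besides Mmp13, Mmp12, Mmp3 and Mmp10 these were Mmp1b and Mmp7, which are not shown. A match describes letters only.

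CPM are counts scaled to 1e6 per library, with TMM factors of 0.948 to 1.05. Library totals ranged from 315316 to 1102234 counts, so the 3 counts that a count of 0 allows equal 2.72 to 9.51 CPM before these factors. This limit covers counting error only. Xist and 4 Y-linked genes matched the labelled sex in 19 of 19 iWAT libraries but in only 5 of 10 pgWAT libraries. pgWAT male libraries 2 and 4 held Xist, pgWAT female libraries 2 and 3 held Y-linked reads, and pgWAT female library 1 held both. The counts of calls, and the values of many but not all members, are given with and without these 5 libraries. These 5 are the only pgWAT libraries with a well code in columns 9 and 10, so column and label match cannot be told apart within pgWAT. Fibroblast markers (Col1a1, Col3a1, Dcn, Lum, Pdgfra and Fn1) summed to 6382 to 22743 CPM, and macrophage markers (Cd68, Adgre1, Csf1r, Lyz2, Mrc1, Ptprc, Cd14 and Tyrobp) to 639.6 to 8049 CPM. Adipocyte markers summed to at most 217 CPM. Of 5 neutrophil markers S100a9, Retnlg and Ngp were at 0 counts in every library.

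Of the 50 members, 48 had at least 1 count and 27 passed the filter on low counts. By subfamily, 12 of 22 MMPs, 10 of 19 ADAMTS proteases, 2 of 5 ADAMTSL proteins and 3 of 4 TIMPs passed. Mmp20, which acts in tooth enamel, and Mmp21 were at 0 counts in every library. Levels were compared between genes as CPM per kb of transcript (median length of the gene's basic protein-coding transcripts), the only scale used here across genes. Timp1 had the highest level of all members in every group, at 1698 ± 272 in iWAT male, 1812 ± 420.4 in iWAT female, 3140.4 ± 1551 in pgWAT male and 3522 ± 917 CPM per kb in pgWAT female (mean ± SD). It made up at least 94.1% of the summed TIMP level in every library.

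Among the MMPs, Mmp3 and Mmp2 had the highest mean levels per length in iWAT and in pgWAT female cultures, and in pgWAT male Mmp12 stood between them. Mmp3 (stromelysin 1) took 24.7% ± 2.73 of the summed MMP level in iWAT male, 41.0% ± 9.83 in iWAT female, 37.3% ± 7.65 in pgWAT male and 50.8% ± 13.5 in pgWAT female. Mmp2 (gelatinase A) took 39.0% ± 4.69, 33.0% ± 8.23, 19.9% ± 6.72 and 23.7% ± 11.2 in the same order. Mmp2 was thus ahead of Mmp3 in mean share in iWAT male and behind it in the other 3 groups, with shares that overlapped in iWAT female. Mmp19 was the third in iWAT, at 16.4% ± 4.53 in male and 9.93% ± 1.46 in female cultures, and took 4.10% ± 2.15 in pgWAT male and 3.57% ± 1.02 in pgWAT female. Mmp12 took 8.51% ± 1.69, 4.90% ± 2.03, 22.5% ± 20.3 and 5.81% ± 4.26 in the order above, and its share varied most between libraries in pgWAT male. Among the ADAMTS proteases Adamts2 and Adamts10 had nearly equal mean shares in iWAT, 24.9% ± 4.38 and 25.0% ± 4.35 in male cultures. In pgWAT male cultures their shares were 35.2% ± 3.49 and 13.3% ± 3.49. Adamts5 went from 2.97% ± 0.867 of the summed ADAMTS level in iWAT male to 16.4% ± 3.37 in pgWAT male. Adamtsl5 held 66.8% ± 18.1 of the ADAMTSL level in pgWAT female and 77.5% ± 4.54 in pgWAT male, ahead of Adamtsl1 and Adamtsl4. These shares depend on the length used. By median and by longest transcript Adamts10 has 2533 and 4121 bases, Mmp12 1452 and 4474, and Adamtsl5 1473 and 4104. Adamts2 has 7266 by both. The near equality of Adamts2 and Adamts10 in iWAT male and the rank of Mmp12 in pgWAT male thus hold for the median length only. Smart-seq3 also yields reads from the 5′ end whose number does not grow with transcript length, so levels per length are approximate.

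**Figure D1:**
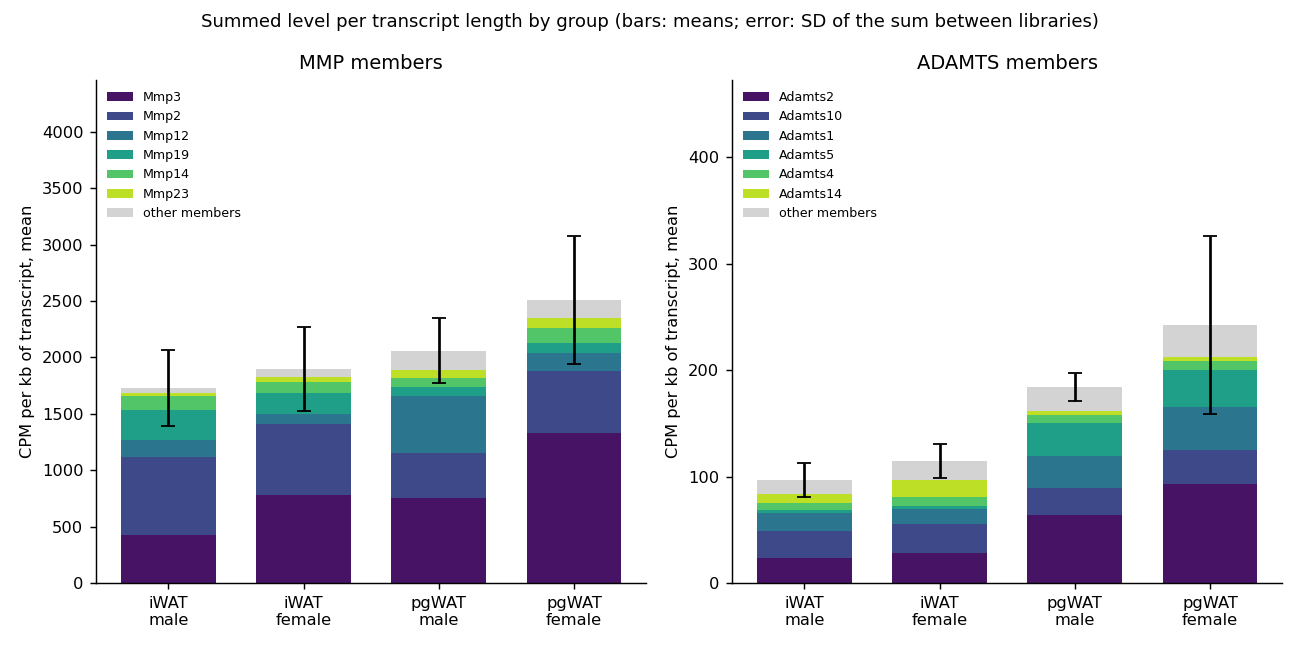
Stacked bars give the mean CPM per kb of transcript of the 6 leading MMPs (left) and ADAMTS proteases (right) and of the other members in each group; black lines are the SD of the sum between libraries. The Adamts5 segment is thin in both iWAT groups (3.0% of the ADAMTS level in iWAT male) and thick in pgWAT (16.4% in pgWAT male), while the Mmp19 segment shrinks.

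The ratio of the summed TIMP level to the summed MMP and ADAMTS level per kb was 0.988 ± 0.188 in iWAT male, 0.946 ± 0.286 in iWAT female, 1.39 ± 0.52 in pgWAT male and 1.31 ± 0.10 in pgWAT female. The ranges of the depots overlapped, from 0.677 to 1.60 in iWAT and from 0.966 to 2.02 in pgWAT.

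The comparison of depots asked how cultures of subcutaneous and visceral SVF differ with male and female labels weighted equally. Of the 27 members tested, 16 were higher and 4 lower in pgWAT (edgeR quasi-likelihood test, Benjamini-Hochberg FDR below 0.05 over 8853 genes), and 7 did not pass. Over all genes tested 38.1% were called, 20.2% higher and 17.9% lower. The higher members were 6 MMPs (Mmp11, Mmp8, Mmp27, Mmp12, Mmp23 and Mmp3), 6 ADAMTS proteases (Adamts5, Adamts15, Adamts2, Adamts1, Adamts6 and Adamts7), Adamtsl5 and Adamtsl1, and Timp1 and Timp2. The lower ones were Mmp9, Adamts14, Mmp19 and Mmp2. Mmp8, Mmp27, Mmp9 and Adamts6 were tested only because the filter on low counts used the 4 groups. With depot as the only factor these did not pass the filter, and the 16 others stayed called. Mmp8 and Mmp27 were low in iWAT and Mmp9 was low in pgWAT, so they entered the test through the depot where they were higher. The median log2 fold change was 0.60 over the 27 members and 0.01 over all genes. Of the 27, only Adamts5, Adamts2, Mmp11 and Mmp19 had no overlap between the libraries of the depots, a pattern found in 2.13% of all genes tested. Without the 5 pgWAT libraries in doubt 15 of the 20 were still called (23.7% of all genes in that fit), and Adamts6, Adamts7, Adamtsl1, Mmp2 and Mmp3 were not. Markers of several cell types differed between the depots too. Of the markers tested, 5 of 6 of fibroblasts, 4 of 7 of macrophages, 2 of 2 of pericytes and smooth muscle (Acta2 and Tagln) and 3 of 4 of the mesothelium (Upk3b, Upk1b and Wt1, with Krt19 lower) were higher in pgWAT, and 6 of 7 of proliferation were lower. The other pericyte and smooth muscle markers were below the filter. Cspg4, Rgs5 and Kcnj8 had lower means in pgWAT in both labelled sexes, and Myh11 had higher ones. For Cspg4 they were 10.3 and 16.2 CPM in iWAT male and female against 4.76 and 2.33 CPM in pgWAT. Pericyte and smooth muscle markers, mostly Acta2 and Tagln, summed to 611 to 3539 CPM in iWAT and 1188 to 3014 CPM in pgWAT. Mesothelial markers summed to 1.96 to 98.4 CPM and 59.1 to 189.7 CPM. Their part in the result was not tested. In a bulk culture fewer cells of a type and less RNA per cell cannot be told apart.

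**Figure D2:**
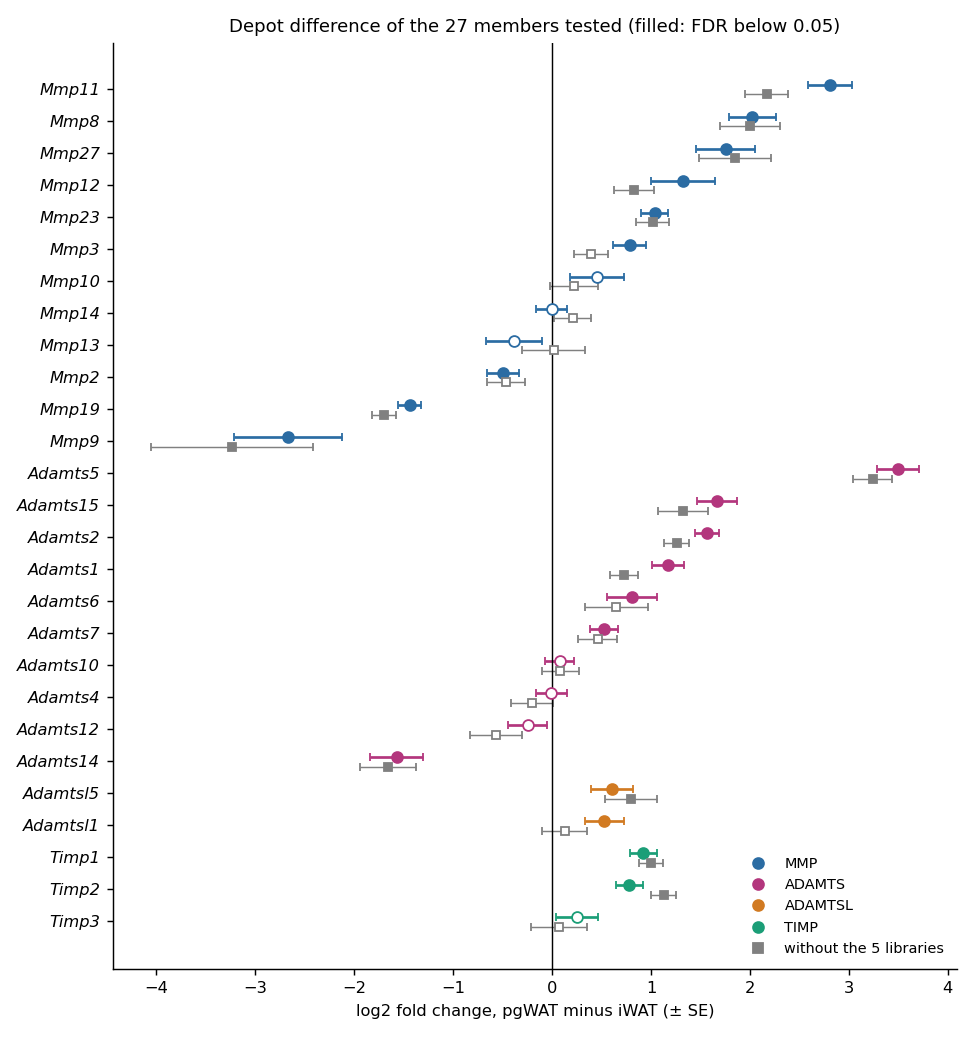
Log2 fold change (pgWAT minus iWAT, x axis) with its SE for each of the 27 members tested, grouped by subfamily; coloured circles use all 29 libraries, gray squares leave out the 5 pgWAT libraries in doubt, and filled symbols have an FDR below 0.05. Adamts5 and Mmp11 lie farthest to the right and Mmp9 farthest to the left in both fits.

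Depots were also compared within 1 labelled sex. In libraries labelled male 15 members were called (20.3% of all genes tested), and in libraries labelled female 18 (26.8%). The direction was the same in both for 21 of the 27. The labels also give each library a well code. Well column 8 held 3 iWAT female and 3 pgWAT female libraries that match their label, and well column 9 held 3 iWAT male libraries and pgWAT male libraries 2 and 4. Of the 20 members called over all libraries, Mmp9 and Mmp27 had too few counts to be tested within columns. Within column 8, 15 of the remaining 18 kept their direction and 11 of these were called. Of all 8118 genes tested there, 769 were called higher and 531 lower. Within column 9, 17 of 18 kept their direction and 11 were called. Of all 7752 genes tested in column 9, 1049 were called higher and 905 lower. Both pgWAT libraries of column 9 go against their male label, so depot and label mismatch cannot be told apart there. The members that did not keep their direction were Mmp3 (called in the opposite direction), Mmp12 and Adamts6 in column 8 and Mmp12 in column 9. The libraries of both columns are also part of the fit that chose the 20 members, so that agreement in direction is partly built in. How many of all called genes kept their direction was not counted.

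The gelatinases Mmp2 and Mmp9 cut denatured collagen and basement membrane collagen, and both were called lower in pgWAT over all libraries. Mmp2 (ENSMUSG00000031740.9) had 1403 to 3103 CPM (median 1882) in iWAT male and 854 to 2579 CPM (median 2007) in iWAT female cultures. In pgWAT male the 4 libraries had 1040.4, 1306, 998 and 1529 CPM, and pgWAT female had 1155 to 2286 CPM (median 1676). The pgWAT values lay inside the iWAT range, below the iWAT mean in 7 of 10 libraries. The log2 fold change was -0.50 ± 0.16 (SE; FDR = 0.0139), and it was -0.47 ± 0.19 (FDR = 0.0757) without the 5 libraries in doubt and -0.31 ± 0.15 (FDR = 0.13) once well column was a term of the fit. Within columns it was -0.05 ± 0.13 in column 8 (FDR = 0.846) and -0.15 ± 0.15 in column 9 (FDR = 0.504). Mmp2 was -0.80 ± 0.25 in libraries labelled male (FDR = 0.0191) and -0.20 ± 0.21 in those labelled female (FDR = 0.52). The difference between these did not pass (FDR = 0.617). Without the 5 libraries they were -1.08 ± 0.31 in male (FDR = 0.02) and 0.15 ± 0.24 in female libraries (FDR = 0.733).

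Mmp9 (ENSMUSG00000017737.3), a gelatinase of myeloid cells, was low throughout. It had 0 to 37.8 CPM (median 6.51) in iWAT male, 6.79 to 30.6 CPM (median 20.04) in iWAT female and 0 to 6.51 CPM (median 2.64) in pgWAT female cultures, and 0, 3.46, 1.39 and 2.15 CPM in the 4 pgWAT male libraries. All 10 pgWAT libraries were below the iWAT mean, with 12 counts in all against 207 in iWAT, while 3 of the 10 iWAT male libraries were at 0 as well. Between depots it differed by a log2 fold change of -2.67 ± 0.55 (FDR = 0.000193), and -3.23 ± 0.82 (FDR = 0.00397) without the 5 libraries. The sum of the macrophage markers was 639.6 to 2484 CPM in iWAT and 749.8 to 8049 CPM in pgWAT, and 4 of the 7 tested were higher in pgWAT and none lower. Their part in the result was not tested. Mmp9 thus passed the test on few counts, while Mmp2 passed it on many.

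The stromelysins Mmp3 and Mmp10 cut proteoglycans, fibronectin and other proenzymes. Mmp3 (ENSMUSG00000043613.9) had 445 to 1039.7 CPM (median 764) in iWAT male and 873 to 2248 CPM (median 1319) in iWAT female cultures. In pgWAT the male libraries had 1424, 1576, 1214 and 1227 CPM and the female ones 1403 to 4279 CPM (median 1979.9). All 10 pgWAT libraries exceeded the iWAT mean, and the 3 highest values of the series were those of pgWAT female libraries 1 to 3, whose sex-linked transcripts did not match their label. This gave a log2 fold change of 0.78 ± 0.17 (FDR = 0.000286). It was 0.39 ± 0.17 without the 5 libraries (FDR = 0.0978) and 0.37 ± 0.17 once well column was a term of the fit (FDR = 0.0888). Within column 8 it turned to -0.46 ± 0.11 (FDR = 0.00577), and within column 9 it was 1.03 ± 0.16 (FDR = 0.000219). The depot difference of Mmp3 thus depended on which wells were compared.

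Mmp10 (ENSMUSG00000047562.4), which shares 11.9% of its 31-base words with Mmp3, so that reads may be split between them, did not pass over all libraries. It had 12.5 to 65.9 CPM (median 30.5) in iWAT, 13.9, 60.6, 22.2 and 63.3 CPM in pgWAT male and 5.01 to 80.3 CPM (median 38.9) in pgWAT female cultures. The pgWAT libraries lay on both sides of the iWAT mean, 5 above and 5 below. Its log2 fold change was 0.45 ± 0.27 (FDR = 0.2), against 1.20 ± 0.25 within column 8 (FDR = 0.00223) and 2.08 ± 0.31 within column 9 (FDR = 0.000207).

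Mmp11 (stromelysin 3, ENSMUSG00000000901.18), a stromal enzyme activated inside the cell by furin-like convertases, had the largest rise of any MMP. It had 10.9 to 37.8 CPM (median 18.9) in iWAT male and 12.6 to 71.3 CPM (median 45.3) in iWAT female cultures, 88.6, 319, 73.6 and 361 CPM in pgWAT male and 140.3 to 282 CPM (median 217) in pgWAT female. Every pgWAT library exceeded every iWAT library, and pgWAT male libraries 1 and 3 were the lowest of the pgWAT group. The log2 fold change was 2.81 ± 0.23 (FDR = 5.07e-12), and 2.17 ± 0.22 (FDR = 3.09e-09) without the 5 libraries in doubt. It was 2.00 ± 0.18 within column 8 (FDR = 8.83e-08) and 4.48 ± 0.27 within column 9 (FDR = 4.06e-08).

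**Figure D3:**
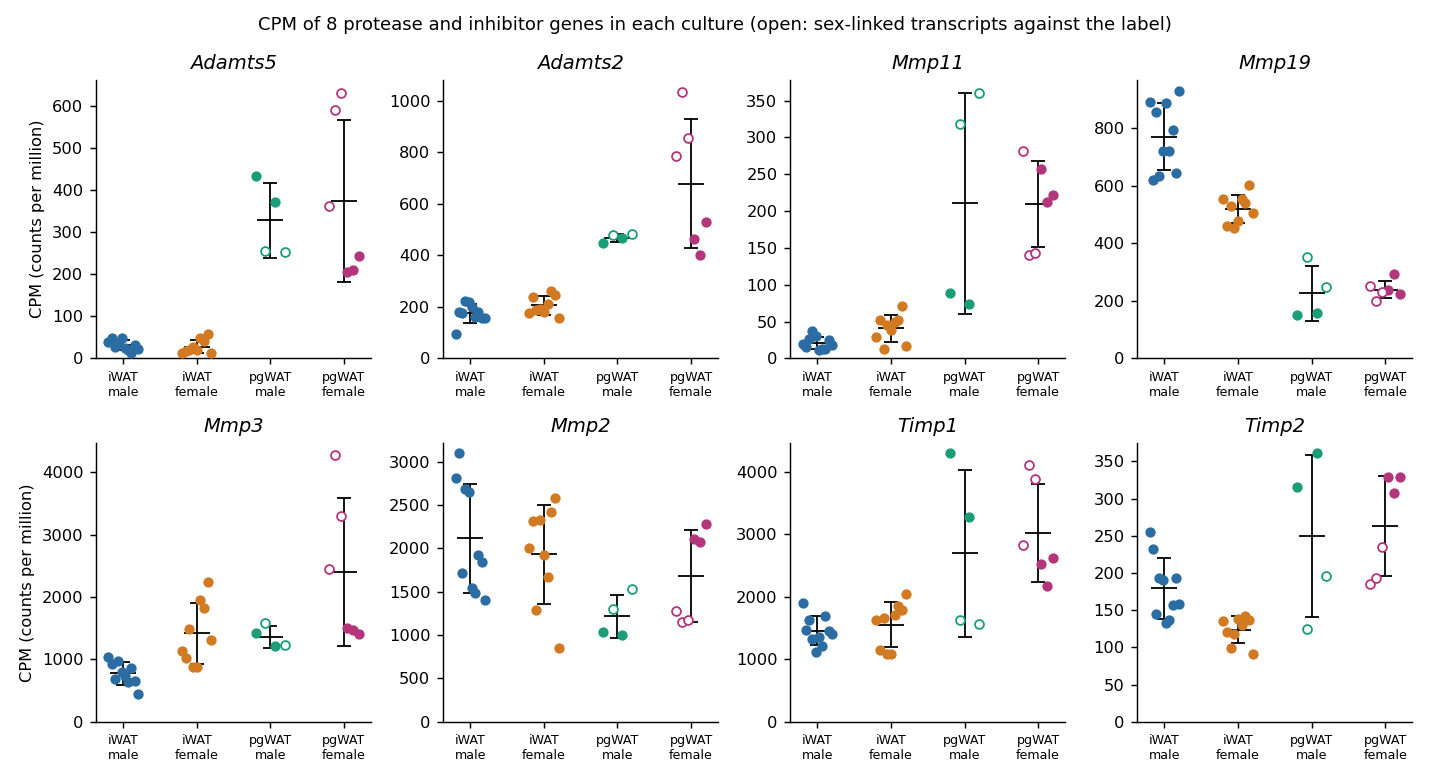
CPM (y axis) of 8 members in each library by group, with the mean and SD in black; open circles mark the 5 pgWAT libraries whose sex-linked transcripts went against the label. For Adamts5, Adamts2, Mmp11 and Mmp19 the depots do not overlap, while for Mmp3, Mmp2, Timp1 and Timp2 they do, and the open circles often lie apart from the filled ones of their group.

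The collagenases Mmp8 and Mmp13 make the first cut in fibrillar collagen. Mmp8 (ENSMUSG00000005800.4) had 1.96 to 12.9 CPM (median 5.67) in iWAT, 33.0, 34.6, 30.5 and 23.6 CPM in pgWAT male and 12.8 to 30.4 CPM (median 24.3) in pgWAT female cultures. In 9 of 10 pgWAT libraries it exceeded the highest iWAT library. Between depots it differed by a log2 fold change of 2.02 ± 0.24 (FDR = 2.33e-08) and 2.00 ± 0.30 without the 5 libraries (FDR = 7.31e-06). Mmp8 is best known from neutrophils. The neutrophil markers summed to at most 3.97 CPM in iWAT and 6.95 CPM in pgWAT, with S100a9, Retnlg and Ngp at 0 counts. The part of neutrophils in the Mmp8 difference was not tested. Mmp13 (ENSMUSG00000050578.11) was not called, with 16.7 to 46.2 CPM (median 27.3) in iWAT against 66.0, 5.20, 69.4 and 9.66 CPM in pgWAT male and 6.41 to 22.5 CPM (median 10.7) in pgWAT female. The pgWAT libraries stood apart from each other, since male libraries 1 and 3 exceeded every iWAT library and 7 others were below every iWAT library. Its log2 fold change was -0.39 ± 0.28 (FDR = 0.298), with 0.45 ± 0.37 in libraries labelled male (FDR = 0.423) and -1.23 ± 0.42 in those labelled female (FDR = 0.0274), and the difference between these values did not pass (FDR = 0.331).

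Mmp12 (macrophage elastase, ENSMUSG00000049723.15) was higher in pgWAT only in part of the libraries. It had 158 to 346 CPM (median 215) in iWAT male and 74.7 to 211 CPM (median 116) in iWAT female cultures. The pgWAT male libraries had 1228, 123, 1444 and 146 CPM, and pgWAT female 22.8 to 504 CPM (median 195). pgWAT male libraries 1 and 3 thus stood far above libraries 2 and 4, and 5 of the 10 pgWAT libraries were below the iWAT mean. This gave a log2 fold change of 1.32 ± 0.32 (FDR = 0.0013) and 0.83 ± 0.21 without the 5 libraries (FDR = 0.00329). The latter value averages opposite differences, 2.61 ± 0.25 in the matching male libraries (FDR = 5.5e-09) and -0.95 ± 0.31 in the matching female ones (FDR = 0.0298). Over all libraries the call was lost with limma-voom and once well column was a term of the fit (0.89 ± 0.36, FDR = 0.0572), and within columns it was -0.33 ± 0.27 in column 8 (FDR = 0.47) and -0.43 ± 0.20 in column 9 (FDR = 0.132). The summed macrophage markers moved with it, at 7505 and 8049 CPM in pgWAT male libraries 1 and 3 and 1155 and 1112 CPM in libraries 2 and 4. The part of macrophages in the Mmp12 difference was not tested.

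**Figure D4:**
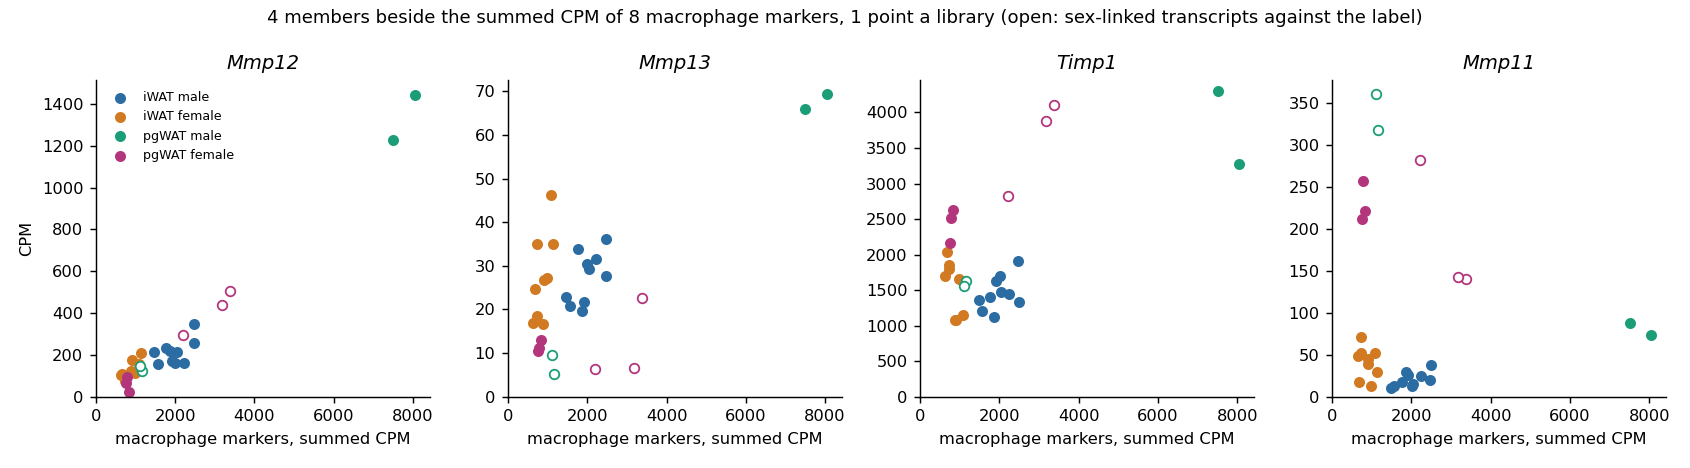
CPM (y axis) of Mmp12, Mmp13, Timp1 and Mmp11 against the summed CPM of 8 macrophage markers (x axis), 1 point a library, coloured by group; open circles mark the 5 pgWAT libraries whose sex-linked transcripts went against the label. The 2 libraries with the highest marker sums (7505 and 8049 CPM) have the highest Mmp12 and Mmp13, while Mmp11 is highest in pgWAT libraries with low marker sums.

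Among the remaining MMPs, Mmp27 and Mmp23 were higher and Mmp19 lower in pgWAT. Mmp27, a little-studied member of the chromosome 9 cluster, had 0 to 13.5 CPM (median 4.96) in iWAT and 8.66 to 31.9 CPM (median 20.9) in pgWAT, with a log2 fold change of 1.76 ± 0.30 (FDR = 1.62e-05). Mmp23, which is anchored in the membrane by its propeptide, had 20.3 to 81.4 CPM (median 56.7) in iWAT and 72.7 to 155 CPM (median 129.5) in pgWAT (1.03 ± 0.14, FDR = 3.73e-07). For both genes 8 of 10 pgWAT libraries exceeded the highest iWAT library.

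Mmp19 (ENSMUSG00000025355.8), which cuts basement membrane proteins, had the lowest FDR of the members that fell. It had 622 to 929.6 CPM (median 759) in iWAT male and 455 to 602 CPM (median 531) in iWAT female cultures, 149, 352, 157 and 247 CPM in pgWAT male and 200.4 to 293 CPM (median 234) in pgWAT female. All 10 pgWAT libraries were below all 19 iWAT libraries. Its log2 fold change was -1.44 ± 0.11 (FDR = 3.31e-12), and it kept its direction and call without the 5 libraries (-1.70 ± 0.12), within column 8 (-1.16 ± 0.14) and within column 9 (-1.47 ± 0.19). Of its 31-base words 21.6% are shared with Tmem198b, so that reads may be split between the pair. Mmp14 (ENSMUSG00000000957.12), the membrane protease that activates proMmp2, did not pass (-0.01 ± 0.15, FDR = 0.981), with 116 to 483 CPM (median 313) in iWAT and 156 to 466 CPM (median 333) in pgWAT. No pgWAT library lay outside its iWAT range. Its value was -0.50 ± 0.24 in libraries labelled male (FDR = 0.134) and 0.49 ± 0.20 in those labelled female (FDR = 0.0746), and the difference between these did not pass (FDR = 0.287). Mmp14 was called higher within column 8 (0.49 ± 0.14, FDR = 0.0213) and not called within column 9 (-0.37 ± 0.21, FDR = 0.217).

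The procollagen N-proteinases Adamts2 and Adamts14, which remove the amino-terminal propeptide of fibrillar procollagens, went in opposite directions. Adamts2 (ENSMUSG00000036545.10) had 93.9 to 222 CPM (median 179) in iWAT male and 155 to 260.2 CPM (median 193) in iWAT female cultures. It had 448, 478, 467 and 481 CPM in pgWAT male and 401 to 1035 CPM (median 658) in pgWAT female, and the lowest pgWAT library exceeded the highest iWAT library. The log2 fold change was 1.56 ± 0.12 (FDR = 4.32e-12) and 1.26 ± 0.13 without the 5 libraries (FDR = 4.57e-09). Adamts14 (ENSMUSG00000059901.13) had 25.3 to 54.0 CPM (median 36.5) in iWAT male, 37.3 to 109.6 CPM (median 69.7) in iWAT female, 33.0, 1.73, 27.8 and 11.8 CPM in pgWAT male and 5.94 to 30.1 CPM (median 16.1) in pgWAT female. All 10 pgWAT libraries were below the iWAT mean and 7 were below every iWAT library. Adamts14 differed by -1.57 ± 0.26 on the log2 scale (FDR = 1.21e-05), and -2.22 ± 0.37 within column 8 and -2.43 ± 0.50 within column 9. Both pgWAT libraries of column 9 go against their male label. It was -1.02 ± 0.38 in libraries labelled male (FDR = 0.0556) and -2.13 ± 0.36 in those labelled female (FDR = 2.53e-05). The difference between these did not pass (FDR = 0.547). Without the 5 libraries they were -0.33 ± 0.37 in male (FDR = 0.662) and -2.98 ± 0.41 in female libraries (FDR = 1.92e-06). Adamts3, the remaining procollagen N-proteinase, held 9 counts in all.

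Of the 4 proteoglycanases (aggrecanases and versicanases) tested, Adamts5, Adamts1 and Adamts15 rose and Adamts4 did not pass. Adamts5 (ENSMUSG00000022894.7), the main aggrecanase of mouse cartilage, had the largest rise of all members. It had 12.7 to 49.6 CPM (median 29.9) in iWAT male and 12.1 to 57.7 CPM (median 21.0) in iWAT female cultures, 434, 255, 372 and 254 CPM in pgWAT male and 206 to 632 CPM (median 303) in pgWAT female. The lowest pgWAT library stood well above the highest iWAT library. Between depots it differed by a log2 fold change of 3.50 ± 0.21 (FDR = 7.17e-15), 3.24 ± 0.20 without the 5 libraries, 2.15 ± 0.18 within column 8 and 3.34 ± 0.22 within column 9. Adamts1, which cuts versican, had 49.2 to 106 CPM (median 71.3) in iWAT and 92.8 to 336 CPM (median 142) in pgWAT (1.17 ± 0.16, FDR = 5.21e-07). Without the 5 libraries the value of Adamts1 was 0.73 ± 0.14 (FDR = 0.000243). Adamts15, another versicanase, had 6.30 to 43.0 CPM (median 17.5) in iWAT and 26.4 to 105 CPM (median 60.6) in pgWAT (1.67 ± 0.20, FDR = 4.19e-08). Every pgWAT library exceeded the iWAT mean for these 3 genes. Adamts4 had 18.1 to 58.6 CPM (median 33.9) in iWAT and 23.6 to 45.6 CPM (median 37.0) in pgWAT and did not pass (-0.01 ± 0.16, FDR = 0.97).

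Adamts7 and Adamts12 both cut cartilage oligomeric matrix protein. Adamts7 had 13.5 to 45.8 CPM (median 27.8) in iWAT and 20.8 to 78.9 CPM (median 46.2) in pgWAT and was called (0.52 ± 0.15, FDR = 0.00452), but not without the 5 libraries (0.46 ± 0.20, FDR = 0.0874). Adamts12 was not called (-0.25 ± 0.20, FDR = 0.339). The pair Adamts6 and Adamts10 acts on fibrillin microfibrils. Adamts6 was low, with 1.96 to 19.7 CPM (median 7.61) in iWAT and 6.51 to 34.6 CPM (median 16.6) in pgWAT (0.80 ± 0.25, FDR = 0.0116). It lost its call without the 5 libraries (0.65 ± 0.32, FDR = 0.147) and once well column was a term of the fit (0.68 ± 0.29, FDR = 0.0677). The call was also lost without pgWAT male library 2, which held the 34.6 CPM. Adamts6 was 1.58 ± 0.37 in libraries labelled male (FDR = 0.00211) and 0.02 ± 0.33 in those labelled female (FDR = 0.971). The difference between these did not pass (FDR = 0.305). Adamts10 had 36.1 to 102 CPM (median 60.2) in iWAT and 47.2 to 106 CPM (median 73.1) in pgWAT (0.08 ± 0.15, FDR = 0.724). Of the 10 ADAMTS proteases tested, Adamts4, Adamts10 and Adamts12 were the 3 that did not pass between depots.

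Both ADAMTSL proteins that were tested rose by small amounts. Adamtsl5, which binds fibrillin microfibrils, had 2.46 to 44.1 CPM (median 20.3) in iWAT and 15.0 to 48.6 CPM (median 30.8) in pgWAT (0.60 ± 0.22, FDR = 0.0258). Adamtsl1 had 6.33 to 34.6 CPM (median 17.6) in iWAT and 14.8 to 51.2 CPM (median 22.6) in pgWAT (0.53 ± 0.20, FDR = 0.0354). The ranges overlapped for both, and both calls were lost under some alternatives. Adamtsl5 lost it once well column was a term of the fit (0.53 ± 0.23, FDR = 0.0745) and without pgWAT male library 3 or pgWAT female library 5. Adamtsl1 lost it in 6 of 8 other settings, namely total counts, no filter, DESeq2, limma-voom, well column in the fit (0.35 ± 0.22, FDR = 0.246) and without the 5 libraries (0.13 ± 0.22, FDR = 0.736) and in 6 of the 29 fits that left out 1 library.

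Of the inhibitors, Timp1 and Timp2 were higher in pgWAT and Timp3 was not called, except once well column was a term of the fit or in female libraries alone. Timp1 (ENSMUSG00000001131.12), an inducible inhibitor of most MMPs, had 1123 to 1905 CPM (median 1425) in iWAT male and 1078 to 2043 CPM (median 1664) in iWAT female cultures. It had 4299, 1635, 3279.8 and 1564 CPM in pgWAT male and 2168 to 4106 CPM (median 2725) in pgWAT female. All 10 pgWAT libraries exceeded the iWAT mean and 8 exceeded every iWAT library, with pgWAT male libraries 2 and 4 the exceptions. This gave a log2 fold change of 0.92 ± 0.14 (FDR = 1.75e-06), 1.00 ± 0.12 without the 5 libraries, 0.45 ± 0.11 within column 8 (FDR = 0.0056) and 0.20 ± 0.16 within column 9 (FDR = 0.388).

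Timp2 (ENSMUSG00000017466.11), which with Mmp14 also activates proMmp2, had 133 to 255 CPM (median 174) in iWAT male, 91.1 to 142 CPM (median 130.4) in iWAT female, 316, 125, 361 and 196 CPM in pgWAT male and 186 to 329.6 CPM (median 271) in pgWAT female. It was above the iWAT mean in 9 of 10 pgWAT libraries, and the exception was pgWAT male library 2. Its log2 fold change was 0.78 ± 0.13 (FDR = 1.94e-05) and 1.13 ± 0.12 without the 5 libraries (FDR = 2.39e-08). It was 0.47 ± 0.20 in libraries labelled male (FDR = 0.0888) and 1.09 ± 0.18 in those labelled female (FDR = 2.6e-05), and 1.23 ± 0.14 within column 8 (FDR = 2.78e-06) and 0.25 ± 0.21 within column 9 (FDR = 0.422). The difference between the labelled sexes did not pass (FDR = 0.511). Timp3 (ENSMUSG00000020044.14), a matrix-bound inhibitor, had 55.8 to 141 CPM (median 93.1) in iWAT male, 10.2 to 133 CPM (median 46.2) in iWAT female, 59.1, 84.9, 65.3 and 66.6 CPM in pgWAT male and 84.6 to 130.4 CPM (median 103) in pgWAT female. Its log2 fold change between depots was 0.25 ± 0.21 (FDR = 0.377), with -0.49 ± 0.32 in libraries labelled male (FDR = 0.301) and 0.99 ± 0.29 in those labelled female (FDR = 0.00939). The difference between these 2 values did not pass (FDR = 0.193). Without the 5 libraries Timp3 was not called, at 0.07 ± 0.28 with the sexes weighted equally (FDR = 0.893) and 0.80 ± 0.36 in female libraries (FDR = 0.129). With well column in the fit Timp3 was higher in pgWAT (0.65 ± 0.22, FDR = 0.0234). It was 1.99 ± 0.29 within column 8 (FDR = 5.77e-05) and -0.25 ± 0.24 within column 9 (FDR = 0.491). Timp3 lies within Syn3, and 21.1% of its 31-base words are shared with that gene's transcripts. Timp4 held 25 counts in 16 libraries and was not tested.

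In iWAT, where every library matched its label, 3 of the 27 members differed between sexes, against 3.22% of all genes. Mmp19 and Timp3 were higher in male cultures (1.08% of all genes) and Mmp3 was lower (2.13%). Mmp19 had 771 ± 117 CPM in male and 520.1 ± 49.3 CPM in female cultures (mean ± SD), and the sexes did not overlap, a pattern found in 0.52% of all genes. The log2 fold change (male minus female) was 0.57 ± 0.12 (FDR = 0.00558), and it was 0.61 ± 0.14 within well column 7 (7 male and 4 female libraries, FDR = 0.0194). Mmp19 was the only one of the 3 that was also called within that column.

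Mmp3 had 775 ± 181 CPM in male and 1417 ± 496 CPM in female iWAT cultures, and all 10 male libraries were below the female mean. Its log2 fold change was -0.87 ± 0.20 (FDR = 0.00889), against -0.28 ± 0.17 within column 7 (FDR = 0.428). The 3 iWAT female libraries of column 8 had the 3 highest Mmp3 values in iWAT, 1953, 1819 and 2248 CPM. Timp3 had 95.0 ± 28.5 CPM in male and 55.1 ± 36.3 CPM in female cultures (0.87 ± 0.25, FDR = 0.0481), and 0.69 ± 0.24 within column 7 (FDR = 0.11). Of the 29 fits that left out 1 library, 12 kept the call of Timp3. Next in order were Adamts14 (-0.85 ± 0.25, FDR = 0.0555) and Timp2 (0.53 ± 0.16, FDR = 0.0657), which did not pass over all libraries. Both were called within column 7, at -1.32 ± 0.19 (FDR = 0.000246) and 0.62 ± 0.16 (FDR = 0.0331).

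Other cell types differed between the iWAT sexes as well. Macrophage markers summed to 1475 to 2484 CPM in male and 639.6 to 1139.7 CPM in female cultures, without overlap. Adipocyte markers summed to 114 to 217 CPM in male and 24.6 to 53.8 CPM in female cultures, and pericyte and smooth muscle markers to 611 to 841 and 842 to 3539 CPM, in both cases without overlap. Of the latter list, Acta2 and Tagln were called lower in male cultures. Below the filter, Kcnj8 and Rgs5 had higher means in male cultures, and Cspg4 and Myh11 had lower ones. Of the fibroblast markers Col1a1 and Lum were called lower in male cultures. Epithelial markers (Epcam, Cdh1 and 5 keratins) summed to 0 to 8.31 CPM in male and 48.6 to 2069.6 CPM in female cultures. The part of these cell types in the Mmp19, Mmp3 and Timp3 differences was not tested.

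In pgWAT no member was called between the labelled sexes over all 10 libraries (0.0113% of all genes, lowest member FDR = 0.212, for Adamts7), and none in the depot by sex interaction (0.181%, lowest FDR = 0.193, for Timp3). At an unadjusted p below 0.05, 739 and 771 of the 8853 genes passed in these 2 contrasts. limma-voom and DESeq2 called no member in either. Since 5 of these 10 libraries go against their label, the labelled sexes were also compared in the 2 male and 3 female libraries that match. There 7 members were called (5.63% of all genes in that fit).

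Of these 7, Mmp12 differed most. It had 1228 and 1444 CPM in the matching male libraries and 95.6, 66.8 and 22.8 CPM in the matching female ones (4.30 ± 0.38, FDR = 1.9e-09). Mmp13 had 66.0 and 69.4 CPM against 11.1, 10.4 and 13.02 CPM (2.54 ± 0.39, FDR = 2.53e-05). Both were higher in the male libraries, as was Adamts14 (1.79 ± 0.54, FDR = 0.0434). Lower in the male libraries were Mmp10 (-1.94 ± 0.42, FDR = 0.00258), Mmp11 (-1.54 ± 0.38, FDR = 0.00963), Adamts7 (-1.29 ± 0.35, FDR = 0.0186) and Mmp19 (-0.75 ± 0.21, FDR = 0.0231). The neighbours Mmp12 and Mmp13, shown above, thus went the opposite way from Mmp10 in the same cluster. Macrophage markers summed to 7505 and 8049 CPM in these male libraries against 782, 749.8 and 837 CPM in the female ones, and their part in the result was not tested.

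In the same fit 9 members were called between the sexes in iWAT (5.84% of all genes), the 3 above and Adamts14, Adamts6, Mmp10, Mmp11, Mmp12 and Timp2. For the interaction 4 members were called (2.56%), so that in this fit the depot difference itself differed between the male and female libraries. Over all libraries no member was called. The differences of the depot log2 fold changes (male minus female) were 3.56 ± 0.42 for Mmp12 (FDR = 1.18e-06), 2.65 ± 0.57 for Adamts14 (FDR = 0.00455), 2.57 ± 0.43 for Mmp13 (FDR = 0.000299) and -1.31 ± 0.23 for Mmp19 (FDR = 0.000436). These values rest on 2 pgWAT male and 3 pgWAT female libraries, which are technical wells of few experiments. Sex and experiment cannot be told apart here. The male libraries also held the higher macrophage marker sums given above, and their part in the interaction was not tested. All 3 female libraries stand in well column 8, and the male libraries in columns 7 and 8.

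Other genes of matrix proteolysis were counted from 5 lists with 43 genes. Of the 32 tested, 20 were higher and 3 lower in pgWAT, beside the 20.2% and 17.9% of all genes. The membrane-bound ADAM family had 6 of 9 higher and 1 lower, with Adam9 (0.87 ± 0.10, FDR = 3.81e-08), Adam19 (0.91 ± 0.11, FDR = 3.81e-08) and Adam33 (-1.02 ± 0.21, FDR = 0.000253) at the lowest FDR. The astacin proteases and their enhancers, which remove the carboxy-terminal procollagen propeptide, had 3 of 3 higher. These were Pcolce2 (2.81 ± 0.31, FDR = 8.31e-09), Bmp1 (0.41 ± 0.10, FDR = 0.00168) and Pcolce (0.33 ± 0.10, FDR = 0.00766). Among the proprotein convertases, which activate Mmp11, Mmp14 and ADAMTS proenzymes, Pcsk5 was the 1 of 3 that was higher (2.69 ± 0.39, FDR = 1.31e-06), and Furin was not called (0.10 ± 0.12, FDR = 0.562).

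Among other inhibitors, clearance receptors and inducers, 2 of 6 were higher and 1 lower. The MMP inducer Bsg (1.06 ± 0.16, FDR = 3.64e-06) and the clearance receptor Lrp1 (0.40 ± 0.08, FDR = 0.000165) were higher, and Cd44, which docks Mmp9 at the cell surface, was lower (-0.70 ± 0.12, FDR = 1.94e-05). Of the ADAMTS substrates and matrix partners, 8 of 11 were higher and 1 lower. At the lowest FDR were Lox, the collagen crosslinking enzyme (1.58 ± 0.15, FDR = 1.22e-10), Col1a1 (1.22 ± 0.18, FDR = 2.05e-06) and Ltbp1 (-1.01 ± 0.16, FDR = 7.42e-06). The proteoglycan Vcan, the versican that Adamts1, Adamts5 and Adamts15 cut, was not called (0.14 ± 0.13, FDR = 0.451). Col1a1, Col3a1 and Fn1 are also on the fibroblast marker list. Without the 5 libraries in doubt 13 of the pathway genes were higher in pgWAT in place of 20. Over all genes 1159 of 9516 were higher in that fit, in place of 1785 of 8853.

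The 23 members below the filter held at most 92 counts each over all 29 libraries, and no difference could be read from most of them at this depth. Adamts9 held 45 counts in iWAT and 47 in pgWAT, and Adamtsl4, the third ADAMTSL protein by level, 42 and 44. The membrane-type Mmp17 was found in all 29 libraries with 44 counts in iWAT and 33 in pgWAT, and Mmp15 had 44 and 17. Adamts8 had 62 and 7, and 9.41% of its 31-base words are shared with the unnamed gene Gm29724. Mmp7 had 13 counts in iWAT and 0 in pgWAT, where 0 allows up to 3 counts in a library. Adamtsl3 (22 counts in all), Adamtsl2 (19), Adamts16 (16), Mmp1b (12), Mmp24 (10), Mmp25 (9), Mmp28 (7), Mmp16 (6), Adamts19 (4), Adamts13 (3), Adamts17 (3), Adamts18 (2) and Adamts20 (2) were at most traces.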

How the data were processed

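The 29 libraries of cultured SVF were grouped by the depot and sex in their labels. The authors trimmed reads with NGmerge, quantified them with Salmon (1.9.0) against Gencode vM32 transcripts (GRCm39) and deposited expected counts per gene; STAR (2.7.10a), FastQC (0.11.9) and MultiQC (1.12) served quality control. Libraries in which few genes were detected had been removed. The expected counts were rounded to whole numbers. Totals were 315316 to 1102234 per library. Names, biotypes, lengths and shared 31-base words came from GENCODE M21 and RefSeq (GRCm38.p6), another build than the counts, so that no gene coordinates are given beyond the promoter windows. Unmatched rows held 0.439% of counts.

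Tests used the edgeR (4.0.16, R 4.3.3) quasi-likelihood fit over all genes that passed filterByExpr (8853), with TMM factors and 1 term per group, two-sided, with Benjamini-Hochberg adjustment and a threshold of 0.05. SE was the log2 fold change divided by the root of F. Well column came from the label's well code. The fit was tested on simulated data. Alternatives were RLE factors, total counts, no filter, DESeq2 (1.42.0), limma-voom (3.58.1), well column as a factor, single well columns, depot alone and leaving out libraries. All 4 TIMPs, every called member and the 3 members with the highest level per length in each subfamily are described, and up to 3 genes per pathway list are named by FDR; Furin and Vcan were added after their values were seen. Members and lists were chosen with earlier results of these data known.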

Additional observations from a re-analysis of the deposited data

Results flagged for a closer look

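A library far from the others of its group was found in 4 of 108 combinations of a member and a group, where chance gives about 5.4 (1 in 20), and 3 libraries held them. In iWAT male library 1 Adamts2 was 93.9 CPM with the next library at 155 CPM, and Mmp12 was 346 CPM with the next at 256 CPM. In pgWAT female library 2, whose sex-linked transcripts go against its label, Mmp23 was 72.7 CPM with the next at 131 CPM. In iWAT male library 4 Mmp9 was 37.8 CPM with the next at 13.8 CPM.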

How the results depend on the processing

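Between depots, 20 members were called with RLE factors, 19 with total counts, 18 with limma-voom, 21 with DESeq2, 23 without a filter, 16 with depot as the only factor (where Adamts6, Mmp8, Mmp9 and Mmp27 did not pass the filter and all 16 others stayed called), 15 with well column as a factor and 15 without the 5 pgWAT libraries in doubt, beside 20 over all libraries. Leaving out 1 library gave 18 to 20 calls between depots (14 to 16 higher, 4 lower), 13 to 16 in libraries labelled male, 16 to 19 in those labelled female, 2 to 6 between sexes in iWAT, 0 between labelled sexes in pgWAT, 0 to 1 for the interaction (Timp3, without iWAT female library 9) and 21 to 23 pathway genes. The 3 calls between iWAT sexes became 8 without a filter and 9 without the 5 libraries, and 5 and 6 without pgWAT male libraries 2 and 3. With well column they were 4, of which Mmp19 is shared, with Mmp3 and Timp3 lost and Adamts14, Mmp10 and Timp2 gained. Between labelled sexes in pgWAT 0 became 2 without a filter (Mmp12 and Mmp13), 1 with well column (Mmp12) and 7 without the 5 libraries. For the interaction 0 became 1 without a filter and 1 with well column (Timp3 in each) and 4 without the 5 libraries. Of the pathway genes 13 were higher without the 5 libraries, beside 20, and of all genes 1159 of 9516, beside 1785 of 8853. The share of Adamts2 in the ADAMTS level of pgWAT female was 40.8% with the longest transcript, beside 38.3%. The log2 fold change between depots turned its sign for 4 members, none of them called, over these fits to all or most libraries. Within single well columns the called members Mmp3, Mmp12 and Adamts6 turned as well, as given above. Adamts4 was 0.0085 with limma-voom, 0.19 with well column, 0.0068 with depot alone and -0.0629 to 0.0518 without 1 library. Mmp14 was 0.0899 with well column, 0.21 without the 5 libraries, 0.10 with depot alone and -0.16 to 0.0711 without 1 library. Mmp13 was 0.0145 without the 5 libraries, and Adamts10 -0.0407 to 0.12 without 1 library. The causes were not tested. No paired analysis was possible because the labels carry no replicate numbers and the numbers used here follow accession order.

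Members with few counts, such as Mmp9 in pgWAT, are limited by depth. The wells come from few experiments that the labels do not name, so that the experiment and the depot or sex cannot be separated, and well column is only partly balanced over the groups.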

Other observations

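Adamts9, a versicanase below the filter on low counts, was at 30.1 and 21.7 CPM in pgWAT female libraries 2 and 3, and at most 8.72 CPM in iWAT. The sex-linked transcripts of these pgWAT libraries go against their label. In the pgWAT libraries that match their label Adamts9 was 9.69, 1.48 and 3.26 CPM (female) and 5.21 and 8.33 CPM (male). Adamtsl4 reached 25.1 CPM in pgWAT female library 2, which also goes against its label, and at most 7.94 CPM in iWAT. Both genes were picked after their values were seen.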
